A study of Trichoderma asperellum with 9 samples.

Results

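Among the gene models of Trichoderma asperellum strain Ts93, 84 of 9396 fell strongly in cultures labelled 0.5 mM BCS while their mean changed little with 1 mM copper ions. T. asperellum is a mould of soil, and members of its genus are applied to protect crops from plant pathogens. Members were chosen by their own FPKM values, which scale the reads of a model by its length and by the depth of the library. Each had a log2 ratio of mean FPKM + 1 of -1.5 or lower with BCS, relative to control, and a ratio between -0.5 and 0.5 with copper. Each also had every BCS value below all 6 other values, and a control mean of at least 5 FPKM. The fall with BCS, the small mean change with copper and the separation of the BCS libraries are therefore conditions of choice. They are described here, and the test calls given below for members carry no separate evidence of them.

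RNA-seq covered 9 libraries of total RNA in 3 groups of 3: cultures with 0.5 mM BCS, cultures with 1 mM copper ions, and control cultures (treatment label CK), all of the wild-type strain Ts93. The labels name neither medium nor culture time, and they leave unsaid whether replicate libraries stem from separate cultures, so the spread within a group may be technical. Library totals recovered from the FPKM steps lay between 12335534 and 17142918 reads. Chelation of copper is the usual meaning of the abbreviation BCS (bathocuproine disulfonate), but the labels do not spell it out.

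Copper is a cofactor of cytochrome c oxidase, of copper/zinc superoxide dismutase and of multicopper oxidases such as laccases, which many fungi secrete. In the yeast Saccharomyces cerevisiae, copper shortage switches on high-affinity copper uptake, and copper excess switches on metallothioneins, which bind the metal. None of the 9396 identifiers matched a gene, locus tag or accession among 12041 genes of T. asperellum FT101 in RefSeq, and the table gives no names. No member can therefore be placed in these pathways, no sequence is shown, and members carry only the identifiers of the table. Of the 84 members, 67 had a number with the prefix 93-3_5.6A (numbered models) and 17 carried a name such as Novel01019 (supplementary models, of unstated origin).

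The rule left 84 models after a few broad steps. A fall of 1.5 log2 units or more with BCS was seen in 290 models, of which 268 had a control mean of at least 5 FPKM. In 217 of these, every BCS library lay below every copper and control library. Of the 217, 84 changed by less than 0.5 log2 units with copper, 59 were lower with copper by at least 0.5 and 74 were higher by at least 0.5. The 84 members thus cover a continuous range of copper changes and are set apart by a limit, not by a gap, as the scatter of all tested models shows. With BCS, the median member stood at 24.5% of its control mean, with a range of 0.53% to 33.9%. The median log2 ratio was -1.93 for BCS against control, beside -0.07 over all 7857 tested models (those with at least 1 FPKM in at least 3 libraries). For copper it was 0.10, beside 0.11 over all tested models. For BCS against copper the median was -1.99, with a range of -6.20 to -1.12, beside -0.22 over all tested models.

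**Figure D1:**
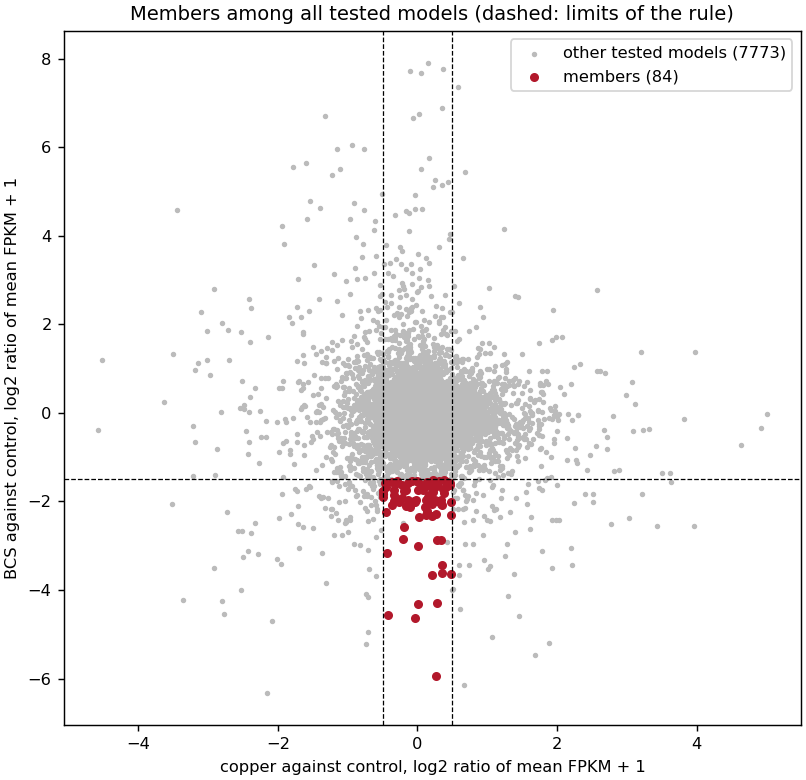
Each point is a tested gene model, placed by its log2 ratio of mean FPKM + 1 in copper against control (horizontal axis) and for BCS in the same way (vertical axis), with members in red and the limits of the rule as dashed lines. The 84 members reach down to -5.94 on the BCS axis and lie between -0.50 and 0.49 on the copper axis. Other models fell by at least 1.5 log2 units with BCS on both sides of the copper limits.

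With limma on log2(FPKM + 1), all 84 members were called lower in BCS than in control at an adjusted p under 0.05, where 9.84% of all tested models were called lower. All 84 were also called lower in BCS than in copper, where 23.9% of tested models were. In copper against control, 0 of 84 were called in either direction, where 9.55% of tested models were called. The share of tested models called moved with single libraries. In BCS against control it was 5.5% without BCS replicate 1, 6.13% without BCS replicate 3, 6.55% without control replicate 3 and 20.9% without BCS replicate 2. In BCS against copper it was 15.8% without BCS replicate 1, 15.5% without copper replicate 3 and 36.7% without BCS replicate 2. For copper against control it was 3.72% to 4.56% without any 1 copper library, 5.92% without control replicate 3 and 14.6% without BCS replicate 2. Since the rule used the same contrasts, the counts of members follow from the choice and carry no separate evidence.

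Most falls were moderate and a few were deep. The log2 ratio in BCS against control was between -2 and -1.5 in 52 members, between -3 and -2 in 21, between -4 and -3 in 6, and -4 or lower in 5. The rule required a separation from the other groups, so only its width varied, and the counts describe the members chosen. In 44 of 84 the lowest of the 6 copper and control values was at least 2 times the highest BCS value, and in 5 it was under 1.25 times.

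**Figure D2:**
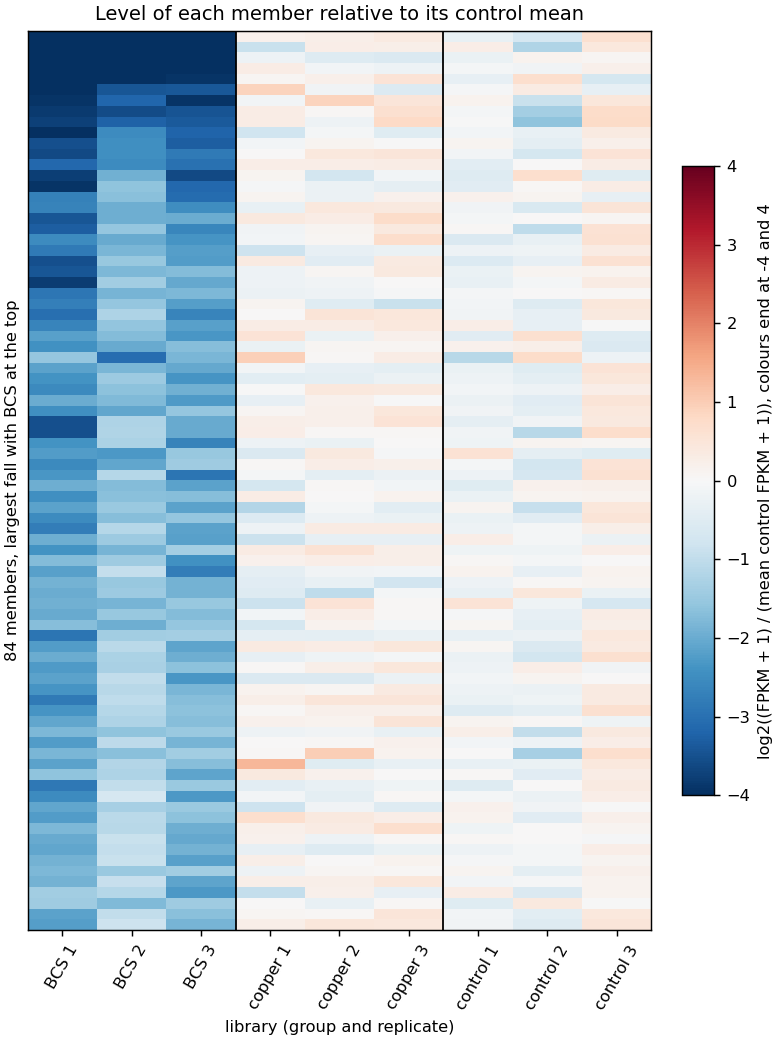
Each row is 1 of the 84 members, ordered from the largest fall with BCS at the top, and each column is a library. The colour gives log2((FPKM + 1) / (mean control FPKM + 1)), with colours ending at -4 and 4. The 3 BCS columns are blue throughout, BCS replicate 2 is the palest of the 3 in most rows, and most copper and control cells are much paler than the BCS cells.

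The largest fall was that of 93-3_5.6A0678, a model with a coding length of 2742 bases. It had 14.2, 15.4 and 16.4 FPKM with BCS, 1140, 1179 and 1289 FPKM with copper, and 821, 622 and 1563 FPKM in the control. The BCS values agreed closely with each other while the control values spread widely, and the lowest of the other libraries was 38 times the highest BCS library. Its group means were 15.3 ± 1.09 FPKM with BCS, 1203 ± 77.3 with copper and 1002 ± 496 in the control (SD, n = 3 each), so that the BCS mean was 1.53% of the control mean (log2 ratio -5.94). Among members it also had the narrowest spread over the BCS libraries, 0.19 log2 units from lowest to highest. It is the only one of the 8 members with a control mean of 1000 FPKM or more that fell below 20% of that mean.

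Next in size of fall was 93-3_5.6A0172 (coding length 894 bases), which had 0.544, 0.979 and 0.748 FPKM with BCS, 22.7, 52.0 and 50.6 FPKM with copper, and 52.0, 18.1 and 57.9 FPKM in the control. Copper replicate 1 and control replicate 2 were low within their groups, and the groups still lay far above all BCS libraries. Its log2 ratio was -4.64 with BCS and -0.03 with copper.

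The supplementary model Novel01019 (length 1548 bases) was nearly silent with BCS. It had 0.105, 0.261 and 0.048 FPKM with BCS, which rest on 2, 6 and 1 reads, against 22.7, 17.9 and 17.0 FPKM with copper and 21.4, 29.0 and 27.6 FPKM in the control. The BCS mean was 0.53% of the control mean, the lowest share among the members, although its log2 ratio of -4.57 was only the next after those of 93-3_5.6A0678 and 93-3_5.6A0172. The 1 FPKM added to each mean compresses the ratios of weakly expressed models. The 9 reads over the BCS libraries have an exact 95% Poisson interval of 4.12 to 17.1 reads, which covers counting error only.

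Copper left 93-3_5.6A3597 (coding length 1113 bases) almost exactly at its control level. This model had 4.51, 4.78 and 3.80 FPKM with BCS, 129, 98.7 and 90.9 FPKM with copper, and 100, 95.3 and 122 FPKM in the control. The means were 4.37 ± 0.505 FPKM with BCS, 106 ± 20.3 with copper and 106 ± 13.9 in the control (SD, n = 3 each). Its log2 ratio was -4.31 with BCS and 0.01 with copper.

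Model 93-3_5.6A2229 (coding length 1443 bases) had 3.31, 5.97 and 7.67 FPKM with BCS, 136, 149 and 190 FPKM with copper, and 103, 207 and 80.2 FPKM in the control. Its log2 ratio with BCS was -4.30. The sixth largest fall, that of 93-3_5.6A1780 (coding length 1824 bases), was from a higher level, with 13.2, 26.2 and 27.0 FPKM with BCS, 543, 266 and 198 FPKM with copper, and 280, 363 and 231 FPKM in the control. Copper replicate 1 was the highest of all its libraries, and the copper values spanned the whole range of the controls (log2 ratio -3.66 with BCS and 0.20 with copper).

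Members were found at all levels above the limit of 5 FPKM. Mean control levels ran from 5.06 to 8122 FPKM with a median of 53.9, beside a median of 33.9 over the 6181 tested models with a control mean of at least 5 FPKM. The control mean lay between 5 and 10 FPKM in 10 members, between 10 and 50 in 30, between 50 and 100 in 10, and at 100 or above in 34. Among the 100 models with the highest control mean of the whole table were 6 members, and among the 500 highest were 14. Over the 6181 tested models above the control limit there were 84. The median log2 ratio with BCS was -1.85 in the lowest of these classes, -2.03 in the next, -1.98 in the third, -1.74 between 100 and 1000 FPKM, and -2.0 in the 8 members at 1000 FPKM or above. Without the added 1 FPKM, the median BCS mean was 16.7%, 22.0%, 24.2%, 29.6% and 25% of the control mean in the same classes. This share was higher in each class than in the one before up to 1000 FPKM, and the log2 ratios had no such order. The rule adds 1 FPKM to each mean, so it admits weak models only at a lower share. The highest share was 24.9% in the lowest class and 33.5% in the next, and nothing is read from the order.

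The most abundant member, 93-3_5.6A1376, has a short coding length of 252 bases. It had 2039, 3352 and 2079 FPKM with BCS, 6459, 7241 and 7733 FPKM with copper, and 6906, 4929 and 12530 FPKM in the control. Control replicate 3 stood far above the other controls, and the lowest control was 1.47 times the highest BCS library. Its log2 ratio with BCS was -1.71. The second, 93-3_5.6A6702, is shorter still at 228 bases and had 1068, 2439 and 1366 FPKM with BCS, 5088, 5156 and 5667 FPKM with copper, and 4685, 4345 and 5991 FPKM in the control. Copper and control values overlapped, and BCS replicate 2 was the highest of its group (log2 ratio -1.62 with BCS).

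The fourth most abundant member, 93-3_5.6A5805 (coding length 1611 bases), had 728, 936 and 1376 FPKM with BCS, 4183, 4560 and 5481 FPKM with copper, and 3630, 3034 and 5301 FPKM in the control. It fell by 1.98 log2 units with BCS and kept 25.4% of its control mean. The third, 93-3_5.6A4590, belongs to a run of consecutive numbers described below.

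**Figure D3:**
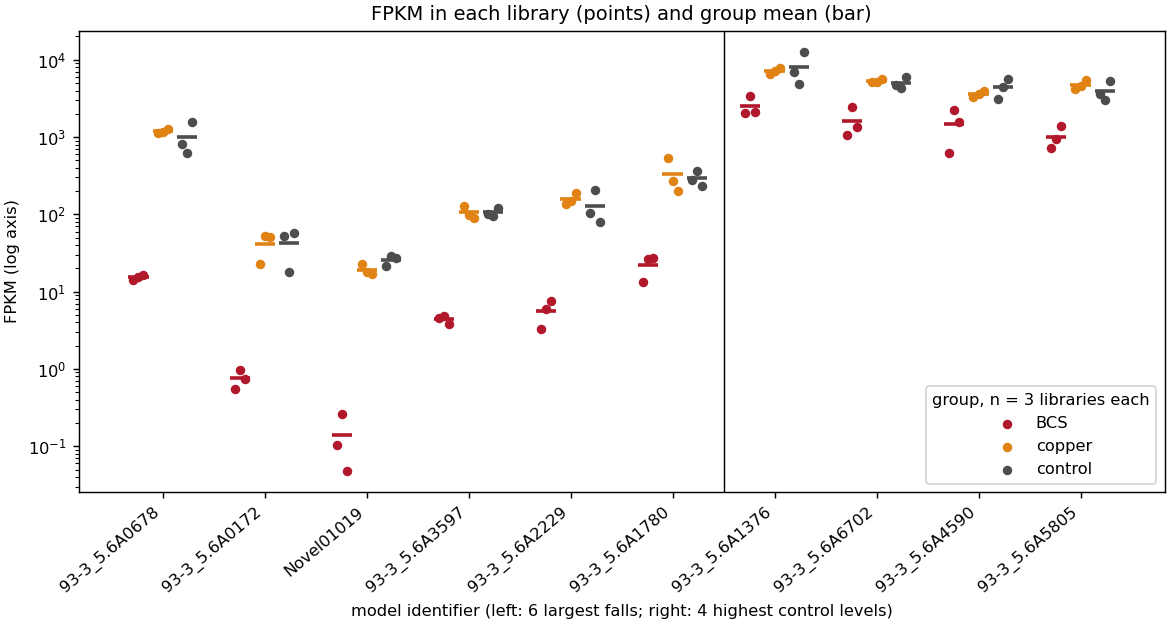
FPKM on a log axis in each library (points) with the group mean (bar) for the 6 members with the largest falls (left of the line) and the 4 with the highest control means (right of it), in the order BCS, copper, control within each model. In all 10 models the 3 BCS points lie below the other 6, and the ranges of copper and control points overlap.

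The members as a group made up a smaller part of the RNA with BCS, which follows from the rule, since it required low BCS values of each. Their summed reads were 0.56%, 1.31% and 1.06% of all assigned reads with BCS, 3.63%, 3.90% and 4.35% with copper, and 3.31%, 3.44% and 4.76% in the control. The mean shares were 0.975% ± 0.38 with BCS, 3.96% ± 0.364 with copper and 3.84% ± 0.804 in the control (SD, n = 3 each). The 8 members with control means of 1000 FPKM or more held 72.7% to 78.3% of the members' summed FPKM in the 9 libraries, so these sums describe mainly those 8. In bulk RNA, less of a transcript per cell and fewer cells that express it cannot be told apart.

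At the low end, 5 members were under 1 FPKM in all 3 BCS libraries, and 5 members rested on fewer than 30 reads summed over the BCS libraries. Across the members, the median sum over the 3 BCS libraries was 676.5 reads, and 68 members had at least 100. A single member, 93-3_5.6A6884, had a library at 0, with 0, 2 and 3 reads in the BCS libraries. A count of 0 in BCS replicate 1 allows up to 0.324 FPKM for this model (3 reads, counting error only).

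The members' libraries spread more widely within a group than those of other models above the same control level. The standard deviation of log2(FPKM + 1) over the 3 libraries had a median of 0.53 over the members with BCS, 0.21 with copper and 0.38 in the control. Over the 6181 tested models with a control mean of at least 5 FPKM, the medians were 0.33 with BCS, 0.17 with copper and 0.25 in the control. The order of the libraries differed as well. With BCS, replicate 2 was the highest of its group in 76.2% of the members, beside 70.7% of the 6181 models, and replicate 1 was the lowest in 71.4%, beside 47.6%. With copper, replicate 1 was the lowest in 54.8% of the members, beside 21.7% of the 6181 models. In the control, replicate 3 was the highest in 73.8% of the members, beside 33.8%. The rule used these values, so the shares describe the members and are not tested.

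**Figure D4:**
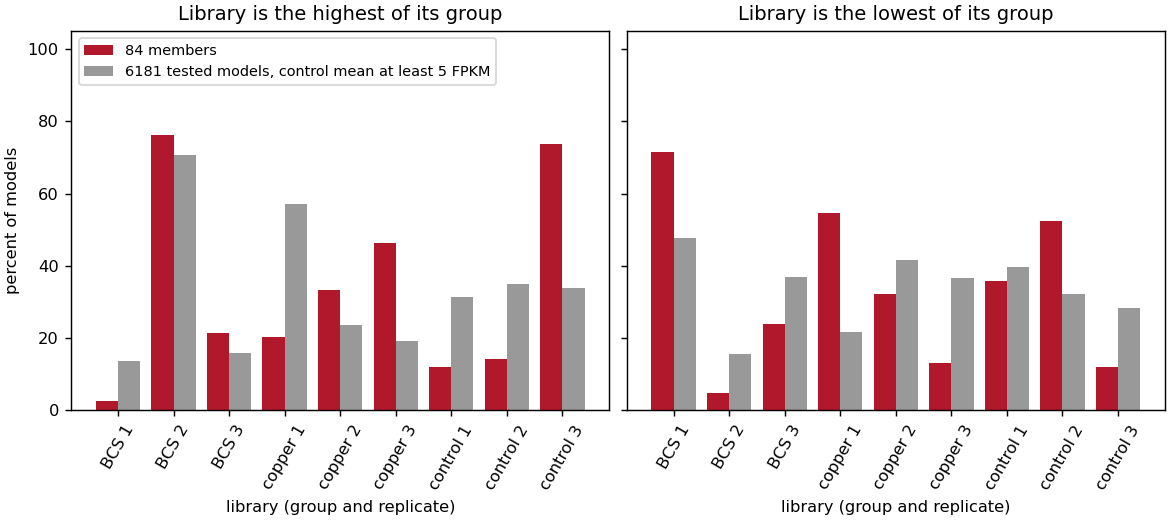
Bars give the percent of models in which a library is the highest (left) or the lowest (right) of its group, for the 84 members (red) and for the 6181 tested models with a control mean of at least 5 FPKM (grey). Control replicate 3 is the highest control in 73.8% of the members and in 33.8% of the grey set, while BCS replicate 2 is the highest BCS library in 76.2% and 70.7%.

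Membership depended on these libraries. Without control replicate 3, 44 of the 84 members met the rule, with 72 models found in all. Of the 40 lost, 23 no longer fell by 1.5 log2 units, 25 no longer met the copper condition and 2 no longer reached the control level, some failing more than 1 condition. Without BCS replicate 1, 63 of the 84 met the rule, with 64 models found in all, and the 21 lost no longer fell by 1.5 log2 units. Without BCS replicate 2, 83 of the 84 met the rule, but the number of models found was 160. Meeting every condition of the rule in all 9 such settings were 25 members, among them 93-3_5.6A0172, 93-3_5.6A3597 and 93-3_5.6A1780 of the 6 largest falls.

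The copper condition limits the mean, not each library. The 3 copper libraries overlapped with the 3 controls in 72 members, lay wholly above them in 7 and wholly below them in 5. Over all tested models, the copper libraries lay wholly above the controls in 25.7% and wholly below them in 10.9%. The limit on the copper mean restricts such members, so nothing is read from the difference. The copper mean was above the control mean in 49 members and below it in 35. That split moved with the scaling of the libraries, to 56 above after rescaling to equal sums (the TPM scale) and 36 above after median-of-ratios scaling. The median copper change over all tested models was 0.23 on the TPM scale and -0.04 after median-of-ratios scaling, compared with 0.11 as deposited, so the members' small copper changes moved with the whole table.

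Spread within a group was widest, for the BCS libraries, in 93-3_5.6A4591 (coding length 843 bases). It had 167, 884 and 568 FPKM with BCS, 2015, 2108 and 2390 FPKM with copper, and 1897, 2218 and 2914 FPKM in the control. BCS replicate 1 was much lower than the other BCS libraries, a range of 2.40 log2 units, and every BCS value was still below the lowest control.

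That model lies in the longest run of consecutive identifier numbers among the members, formed by 93-3_5.6A4590, 93-3_5.6A4591 and 93-3_5.6A4592. All 3 are among the 8 most abundant members. Model 93-3_5.6A4590 (coding length 1926 bases) had 613, 2221 and 1566 FPKM with BCS, 3304, 3566 and 3887 FPKM with copper, and 3070, 4449 and 5720 FPKM in the control. Model 93-3_5.6A4592 (coding length 1398 bases) had 235, 736 and 772 FPKM with BCS, 2234, 2686 and 3379 FPKM with copper, and 2123, 2740 and 2799 FPKM in the control. The 3 models shared their order of libraries in part: BCS replicate 1 was the lowest of all 9 libraries, copper replicate 3 the highest copper library and control replicate 3 the highest control. Over all 84 members, these libraries held the same places within their groups in 71.4%, 46.4% and 73.8%, so the places are not particular to the run. The log2 ratios of the 3 models were -1.59, -2.12 and -2.13 with BCS and -0.30, -0.11 and 0.12 with copper. The models numbered just before and after the run, 93-3_5.6A4589 and 93-3_5.6A4593, were at or near 0 in every group. The sources used here do not say whether consecutive numbers mean neighbouring genes.

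Runs of 2 numbers occurred 3 more times, and these were singled out after their values were seen. Models 93-3_5.6A6883 and 93-3_5.6A6884 (coding lengths 765 and 750 bases) were both at 1.76 FPKM or lower in every BCS library. Model 93-3_5.6A6883 had 0.953, 1.76 and 1.55 FPKM with BCS, 30.8, 21.9 and 44.7 FPKM with copper, and 24.8, 7.55 and 43.2 FPKM in the control. Model 93-3_5.6A6884 had 0, 0.180 and 0.297 FPKM with BCS, 16.3, 13.8 and 21.0 FPKM with copper, and 12.5, 4.51 and 22.5 FPKM in the control. In both, control replicate 2 was the lowest of the 6 copper and control libraries and control replicate 3 the highest control. Over all 84 members, control replicate 2 was the lowest control in 52.4% and control replicate 3 the highest in 73.8%. The model numbered before this pair, 93-3_5.6A6882, was no member because its copper ratio was 0.80. It averaged 0.395 ± 0.124 FPKM with BCS, 12.1 ± 5.07 with copper and 6.49 ± 5.16 in the control (SD, n = 3 each), a log2 ratio with BCS of -2.42.

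Models 93-3_5.6A5930 and 93-3_5.6A5931 were below 4 FPKM in every BCS library and below 25 FPKM in the others. The longer one, 93-3_5.6A5930 (coding length 4077 bases), had 1.67, 2.10 and 1.18 FPKM with BCS, 7.36, 10.8 and 9.38 FPKM with copper, and 7.86, 6.74 and 13.9 FPKM in the control. For 93-3_5.6A5931 the values were 1.78, 3.59 and 2.13 FPKM with BCS, 13.4, 22.4 and 22.1 FPKM with copper, and 15.2, 10.7 and 24.1 FPKM in the control. The next number, 93-3_5.6A5932, had a log2 ratio of -0.76 with BCS and fell short of the rule.

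The last pair, 93-3_5.6A5620 and 93-3_5.6A5621, differed in level and in the order of its libraries. Model 93-3_5.6A5620 had 22.6, 52.4 and 14.5 FPKM with BCS, 110, 89.2 and 99.1 FPKM with copper, and 101, 72.4 and 177 FPKM in the control. Model 93-3_5.6A5621 had 223, 297 and 374 FPKM with BCS, 1006, 1274 and 1266 FPKM with copper, and 1376, 1436 and 818 FPKM in the control. Control replicate 3 was the highest control in the first model and the lowest in the second. The adjoining number, 93-3_5.6A5622, went another way, with 2351 FPKM with BCS, 313 FPKM with copper and 1581 FPKM in the control on average.

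**Figure D5:**
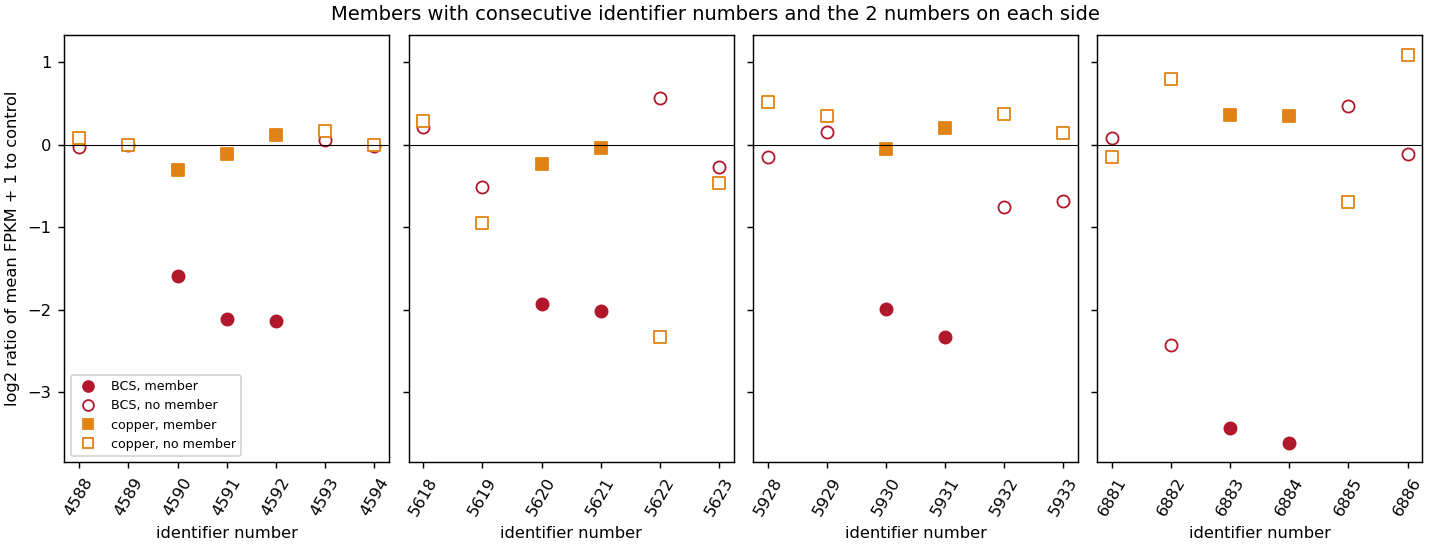
Log2 ratio of mean FPKM + 1 to control, for BCS (red circles) and copper (orange squares), in the 4 runs of members with consecutive identifier numbers (filled) and the 2 numbers on either side (open). In the first 3 panels the filled red circles lie well below the open ones, and in the last the open circle of 93-3_5.6A6882 lies at -2.42, next to the members at -3.43 and -3.61.

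Over all numbered members, 9 of 67 (13.4%) had another member at the number before or after, beside 107 of 6351 (1.68%) of the tested numbered models that are no members. Within 5 numbers the shares were 13 of 67 (19.4%) and 520 of 6351 (8.19%). The 107 models next in number to a member had a median log2 ratio with BCS of -0.32, and 21 of them (19.6%) were lower by at least 1 log2 unit, beside 7.54% of all tested numbered models. These shares describe the numbering and carry no test.

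Model length, which the rule did not use, was similar to that of the table. Numbered members had a median coding length of 1056 bases (range 228 to 4704), beside 1143 bases over all tested numbered models. Supplementary members had a median length of 1814 bases (range 983 to 4276), beside 1995 bases over all tested supplementary models. Supplementary models made up 20.2% of the members, 18.3% of all tested models and 9.98% of tested models with a control mean of at least 5 FPKM.

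Models lay close to each limit of the rule on both sides. Just inside the limit on the fall was Novel02037 (log2 ratio -1.504 with BCS), and just outside it was 93-3_5.6A5864 (-1.498). For the copper condition, Novel01653 lay just inside the lower limit with a log2 ratio of -0.496 with copper, and Novel01433 just outside the upper limit with 0.502. These were unlike in level and fall. Novel01653 averaged 0.83 FPKM with BCS, 3.37 FPKM with copper and 5.17 FPKM in the control, a log2 ratio of -1.75 with BCS. Novel01433 averaged 2.94 FPKM with BCS, 88.3 FPKM with copper and 62.0 FPKM in the control, a log2 ratio of -4.0 with BCS. For the control level, Novel00367 lay inside at 5.06 FPKM and Novel00752 outside at 4.94 FPKM. A further 5 models met every condition except the separation of the BCS libraries, and 6 met every condition except the control level.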

How the data were processed

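The authors deposited 1 table of FPKM values with 1 column per library and unpooled replicates. The submitters' processing notes name, without saying what each did, the aligners TopHat2 (version 2.0.12) and Bowtie2 (version 2.2.3), the counter HTSeq (version 0.6.1) and the package DESeq (version 1.18.0). They list a mouse build although the organism is a fungus. No genome or annotation is named in the sources used here. Groups follow the sample titles. Members and lists were chosen with earlier results of these data known, and every value of the 9 libraries entered the rule.

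Library totals, model lengths and reads were recovered with numpy from the steps of the deposited FPKM values: 100% of values above 0 came out whole within 0.01 reads, and recovered reads summed to at least 99.9% of each total. Recovered lengths were multiples of 3 in 95.3% of numbered models, so they are called coding lengths. With R 4.3.3, limma 3.58.1 (trend option) was fitted to log2(FPKM + 1) of all 9 libraries, 1 mean per group, for 7857 models with at least 1 FPKM in at least 3 libraries, two-sided, with Benjamini-Hochberg adjustment over all of them. FPKM are not counts, and the added 1 understates changes of weak models. The fit and the recovery were also run on simulated data. Simulated noise for the fit was independent between models, with no shift shared by a whole library, so that run does not vouch for the calls here. Named members are the 6 largest falls, the 4 highest control means, those at each limit, the widest and narrowest spread over BCS libraries and the longest run of numbers. Others were added after their values were seen and are marked.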

Additional observations from a re-analysis of the deposited data

How the results depend on the processing

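The rule found 84 models, and 74 to 96 under 6 other settings. These were a pseudocount of 0.1, control means of at least 1 or 10 FPKM, group medians, the TPM scale and median-of-ratios scaling. Of the 84 members, 60 were found again with group medians, 64 on the TPM scale, 66 after median-of-ratios scaling and 74 to 84 in the other settings. The number of models found was 43 with the copper limit at 0.25 and 153 with it at 1. Under both other scalings, 54 members were found again. Leaving out 1 library gave 64 to 160 models, the highest without BCS replicate 2.

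The members' median log2 ratio in BCS against control lay between -2.13 and -1.73 when a library was left out. In copper against control it was 0.22 on the TPM scale and -0.061 after median-of-ratios scaling, and -0.019 to 0.20 without a library. In limma, 773 models were called lower with BCS than in the control, and 428 to 1628 when a library was left out (428 without BCS replicate 1, 477 without BCS replicate 3, 513 without control replicate 3, 1628 without BCS replicate 2). When a library was left out, members called lower numbered 79 to 84 against the control, where 5.5% to 20.9% of tested models were called. Against copper they numbered 81 to 84, where 15.5% to 36.7% of tested models were called lower. The rule used the same contrasts, so all counts of members called in this section follow from the choice and carry no separate evidence. In copper against control, 0 members were called when any library was left out, where 3.72% to 14.6% of tested models were called. After median-of-ratios scaling, 1 member was called (93-3_5.6A4871). With the replicate number as a block (replicate block), 660 models and 83 members were called lower with BCS than in the control, and 84 members lower than with copper. Deviations of same-numbered libraries correlated between -0.28 and 0.21, and those of differently numbered libraries between -0.31 and 0.33. With 3 libraries per group these correlations cannot tell whether the numbers pair the libraries, and the labels do not say. The cause of these shifts was not tested.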
